A study of Mus musculus with 9 samples.

Results

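The mitochondrial ribosome, or mitoribosome, is built from nuclear-encoded proteins that are imported into the organelle and assembled there with ribosomal RNA made from mitochondrial DNA. It translates the few respiratory chain and ATP synthase subunits that mitochondrial DNA encodes. The small subunit (proteins named Mrps) binds the mRNA and decodes it, and the large subunit (Mrpl) joins the amino acids and carries the exit tunnel. Members were all genes of the deposited array table whose symbol begins with Mrpl or Mrps and a number. That rule found 76 of 19505 genes, 48 named for the large and 28 for the small subunit, each with 1 feature on the array.

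The cells were GFP-labelled 3LL cells, the mouse Lewis lung carcinoma line, which arose in the C57BL/6 strain named in the labels. The dish group (3 samples) was a monolayer grown for 7 days. The subcutaneous group (3 samples) and the lung group (3 samples) were GFP-positive cells recovered 7 days after transplantation under the skin or into the lung. All 9 samples carry GFP and come from 1 line, and the series text calls the lungs of the model BLM lungs, an abbreviation it leaves unexplained. The labels do not say whether the 3 samples of a group came from different animals or cultures, so p-values speak only of the spread among the samples at hand, possibly a technical one. Values are log2 signals as deposited, so a difference of 1 is a doubling, and n = 3 for each group throughout.

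The arrays differed in ways that bear on every value here. The 75th percentile of all genes was 8.55 to 8.68 on the lung arrays, 8.20 to 8.49 on the dish arrays and 8.23 to 8.40 on the subcutaneous arrays. RNA integrity numbers were 8.4 to 8.6 in dish, 7.5 to 8.6 in subcutaneous and 7.9 to 8.3 in lung samples. A probe was read as above background when it exceeded the 90th percentile of the negative controls on its array (7.20 to 7.73), and 61 to 71 of the 76 genes did so on any one array. On all 9 arrays 60 genes were above it, and 4 (Mrpl10, Mrpl36, Mrpl43 and Mrps15) were above it on none, so their values give no fold change. Markers fixed for other cells also moved with the groups. The mean level of 6 fibroblast genes was 5.49 to 5.60 in dish, 8.92 to 9.12 in subcutaneous and 6.36 to 7.00 in lung samples, and 3 of the 6 were above background in every subcutaneous sample. The mean level of 8 alveolar type II genes was 6.82 to 8.53 in lung samples, with 3 to 4 above background, against 4.68 to 5.07 elsewhere. Endothelial, B cell, neutrophil, erythroid and skeletal muscle markers were above background on 0 arrays. Club cell markers reached 0 to 2 of 5 in lung samples, macrophage markers 1 to 2 of 7 on any array, and T and NK cell markers 0 to 1 of 7. The fibroblast gene Dcn read 6.85 to 7.32 in dish, 16.37 to 17.09 in subcutaneous and 10.53 to 13.94 in lung samples. Of the 6 fibroblast genes, 3 were called higher in subcutaneous than dish samples and 1 in lung than dish samples (medians 1.57 and 0.30). In lung samples 1 to 2 of the 6 were above background. Of 6 genes taken as markers of the tumour line (Vim, S100a4, Krt8, Krt18, Cd44 and Epcam), 4 to 5 were above background on each array. Their mean level was 9.63 to 10.26 in dish, 11.68 to 11.92 in subcutaneous and 10.31 to 10.90 in lung samples. Whether other cells in the samples also carry them was not tested, so their level is not a measure of tumour cells. Of these 6, limma called 5 higher in subcutaneous than dish samples and 3 lower in lung than subcutaneous samples. The part of these cells and of RNA quality in the results below was not tested. In bulk RNA, fewer cells of a type and less RNA per cell cannot be told apart.

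The 300-base windows around the start sites of 6 members are printed first, chosen after values were seen. Mrpl46, Mrpl37 and Mrps7 had the highest differences between lung and subcutaneous samples, and Mrps11 starts next to Mrpl46 on the other strand. Mrps12 was higher in the lung than in both other groups, and Mrpl34 was the member called lower. How the windows relate to the differences was not tested. They are RefSeq promoter windows of mouse GRCm38.p6, from 250 bases before to 50 bases after the start site, written 5′ to 3′ on the gene's strand. Capitals mark matches to 4 motifs searched on both strands: the NRF1 motif (GCGCA, any base, GCGC), the ETS motif CCGGAAG, the YY1 motif AANATGGC and the E-box CACGTG. ETS and YY1 matches can overlap where one runs into the other. Positions give the leftmost base of a match, counted from the start site at 0.
Mrpl46, chr7:78783040-78783339, minus strand, 0 matches: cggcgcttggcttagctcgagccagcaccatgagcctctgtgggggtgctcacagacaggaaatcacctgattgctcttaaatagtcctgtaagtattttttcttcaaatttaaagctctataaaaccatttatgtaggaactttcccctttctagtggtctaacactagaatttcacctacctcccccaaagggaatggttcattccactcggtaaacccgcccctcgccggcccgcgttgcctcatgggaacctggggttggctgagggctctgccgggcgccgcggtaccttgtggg
Mrps11, chr7:78782881-78783180, plus strand, YY1 on the reverse strand: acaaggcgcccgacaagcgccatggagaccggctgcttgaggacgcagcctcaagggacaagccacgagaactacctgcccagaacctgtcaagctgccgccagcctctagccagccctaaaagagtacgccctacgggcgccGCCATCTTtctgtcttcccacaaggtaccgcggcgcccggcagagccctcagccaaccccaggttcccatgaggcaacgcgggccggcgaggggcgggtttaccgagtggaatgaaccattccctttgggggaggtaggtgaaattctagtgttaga
Mrpl37, chr4:107066817-107067116, minus strand, E-box and YY1: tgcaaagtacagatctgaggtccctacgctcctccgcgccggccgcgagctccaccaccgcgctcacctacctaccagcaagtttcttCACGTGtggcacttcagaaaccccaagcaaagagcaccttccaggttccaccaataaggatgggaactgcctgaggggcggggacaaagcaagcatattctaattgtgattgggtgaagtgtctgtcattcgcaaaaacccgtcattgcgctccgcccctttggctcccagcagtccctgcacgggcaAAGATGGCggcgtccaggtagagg
Mrps7, chr11:115603890-115604189, plus strand, YY1: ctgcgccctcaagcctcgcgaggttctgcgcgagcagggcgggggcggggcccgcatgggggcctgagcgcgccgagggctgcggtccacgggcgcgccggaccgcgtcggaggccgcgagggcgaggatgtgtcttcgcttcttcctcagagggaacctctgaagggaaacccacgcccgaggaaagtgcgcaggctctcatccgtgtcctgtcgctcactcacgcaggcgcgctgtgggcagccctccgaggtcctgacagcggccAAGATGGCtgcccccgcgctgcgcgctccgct
Mrps12, chr7:28741772-28742071, minus strand, YY1 on the reverse strand and ETS: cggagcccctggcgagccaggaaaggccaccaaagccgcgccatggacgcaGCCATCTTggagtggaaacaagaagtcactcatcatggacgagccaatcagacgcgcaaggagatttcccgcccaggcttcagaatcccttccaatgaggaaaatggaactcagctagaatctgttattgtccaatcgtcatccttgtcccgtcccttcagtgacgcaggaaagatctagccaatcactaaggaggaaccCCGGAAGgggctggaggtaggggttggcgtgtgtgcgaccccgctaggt
Mrpl34, chr8:71464676-71464975, plus strand, ETS: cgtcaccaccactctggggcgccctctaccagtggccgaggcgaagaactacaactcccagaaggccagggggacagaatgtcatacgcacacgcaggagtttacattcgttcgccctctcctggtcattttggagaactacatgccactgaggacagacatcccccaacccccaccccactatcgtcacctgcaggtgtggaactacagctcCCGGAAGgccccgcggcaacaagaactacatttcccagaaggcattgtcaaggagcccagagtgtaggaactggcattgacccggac

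In lung against subcutaneous samples the family stood higher in the lung. With limma and Benjamini-Hochberg adjustment over all genes, 29 members were called higher and 1 lower at an adjusted p under 0.05, where 9.21% of all genes were called higher and 5.79% lower. Among the 6134 genes whose mean exceeded background, 20.4% were called higher and 10.5% lower, against 25 and 1 of 66 such members. The median difference was 0.53 over the members, -0.07 over all genes and 0.21 over the genes above background. A difference above 0 was found for 62 of 76 members, 8734 of 19505 genes and 3654 of the 6134 above background. For 5 of the 29 (Mrpl4, Mrpl39, Mrpl41, Mrps10 and Mrps26) the subcutaneous side was not well above background, so their change is only bounded, and Mrps15 was not above it in either group.

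In subcutaneous against dish samples the family stood lower. There 23 members were called lower and 1 higher, beside 6.47% and 6.41% of all genes, and among genes above background 21 and 1 of 66 members beside 14.8% and 14.7%. The median was -0.41 over the members and -0.01 over all genes. Below 0 were 55 of 76 members, 10005 of 19505 genes and 3187 of the 6134 above background. In lung against dish samples 6 members were called higher and 1 lower, beside 4.81% and 1.97% of all genes, with a median of 0.09 over the members and -0.07 over all genes. Among genes above background 6 and 0 of 66 members were called, beside 11.0% and 3.57%, a share higher close to the background. The 3 comparisons share their arrays, so their values are set side by side and are not independent. The subcutaneous mean was the lowest of the 3 group means for 51 members, the dish mean for 16 and the lung mean for 9. The same count was not made over all genes, so no share stands beside it.

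Array scaling moved these counts. With the 75th percentile made equal on all arrays, 16 members were higher and 3 lower in lung against subcutaneous samples, with a median of 0.23, while over all genes the calls went from 1797 higher and 1130 lower to 1124 and 2936. The median of all genes moved from -0.07 to -0.38 under this scaling. The 16 were all among the 29. Under quantile normalization the members gave 19 and 2 (all genes 1405 and 1248), and with the median of the 4804 genes above background on all arrays made equal (the bright median scaling) 17 and 2 (all genes 1276 and 2048). For lung against dish the members' median changed sign, from 0.09 to -0.25, -0.15 and -0.13 under the same 3 scalings, and 6 higher and 1 lower became 1 and 8, 3 and 3, and 2 and 3. Over all genes the lung against dish calls went from 938 higher and 384 lower to 565 and 1787, 662 and 553, and 632 and 855. For subcutaneous against dish they hardly moved, at 21 or 22 members lower and a median of -0.44 to -0.42. Single arrays counted too: the 29 fell to 19 without subcutaneous replicate 3 and 18 without lung replicate 1, and 16 of the 29 were called whichever array was left out. The 6 higher in lung than dish fell to 1 without dish replicate 2, 2 without dish replicate 3 or lung replicate 3 and 3 without lung replicate 1, and Mrpl52 alone was called whichever array was left out. With RNA integrity as a covariate these 6 became 2. The 23 lower in subcutaneous than dish became 13 with RNA integrity as a covariate, and 17 of the 23 were called whichever array was left out.

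**Figure D1:**
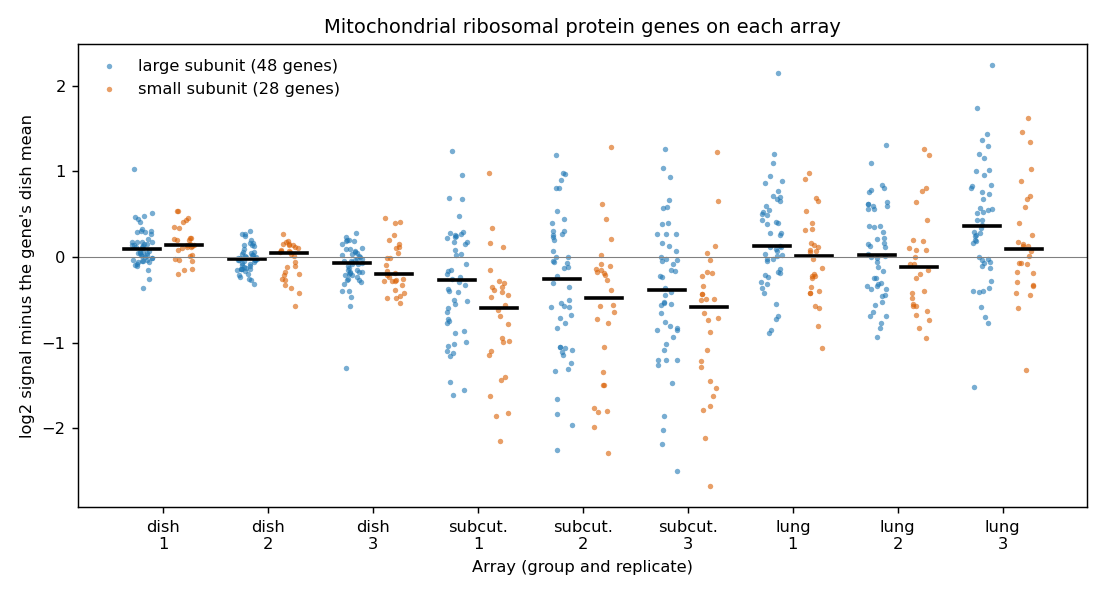
Each point is 1 gene's log2 signal on 1 array minus that gene's mean over the 3 dish arrays (y axis), for the 48 large-subunit (blue) and 28 small-subunit (orange) genes on each of the 9 arrays (x axis), with black bars at the medians. The medians over all 76 genes lie between -0.49 and -0.32 on the subcutaneous arrays and between -0.01 and 0.25 on the lung arrays.

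The array-by-array medians show the same order. Relative to each gene's dish mean, the median member stood at 0.12, -0.01 and -0.10 on the dish arrays, at -0.40, -0.32 and -0.49 on the subcutaneous arrays and at 0.09, -0.01 and 0.25 on the lung arrays. The subcutaneous arrays were the lowest of the 9 and did not overlap either other group, while dish and lung arrays overlapped. Spread within a group was similar: the median SD of a member was 0.23 in dish, 0.20 in subcutaneous and 0.27 in lung samples.

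Both subunits were lowest in the subcutaneous samples, and in both comparisons with that group the small-subunit median was farther from 0. Of the 28 small-subunit genes 14 were higher (50%) and 0 lower in lung than subcutaneous samples, with a median of 0.81. Of the 48 large-subunit genes 15 were higher (31.2%) and 1 lower, with a median of 0.48. The share called higher was 9.21% of all genes and 20.4% of genes above background. Against the dish, 9 small-subunit genes were lower (32.1%) and 1 higher in subcutaneous samples (median -0.48). There 14 large-subunit genes were lower (29.2%) and 0 higher (median -0.28). The share called lower was 6.47% of all genes and 14.8% of genes above background. Lung against dish gave 3 higher of the small (median -0.05) and 3 higher and 1 lower of the large (median 0.14). These shares higher, 10.7% and 6.25%, were not above the 11.0% of genes above background. On single arrays the small-subunit median was -0.59, -0.47 and -0.58 in subcutaneous samples and the large-subunit median -0.27, -0.26 and -0.39, so the values did not overlap. On the lung arrays they were 0.01, -0.11 and 0.10 for the small and 0.12, 0.02 and 0.36 for the large subunit, which overlap. The gap between the medians in lung against subcutaneous samples, -0.33 (large minus small), was -0.062 without lung replicate 3. It was -0.18 once genes were assigned by where the protein sits in the structure, since Mrps18a and Mrps30, despite their names, lie in the large subunit and Mrps36 is a subunit of the 2-oxoglutarate dehydrogenase complex. Assigned by structure, the subcutaneous against dish medians were -0.48 for the small and -0.35 for the large subunit. The single-array medians use the letter of the symbol. The difference between subunits was not tested.

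**Figure D2:**
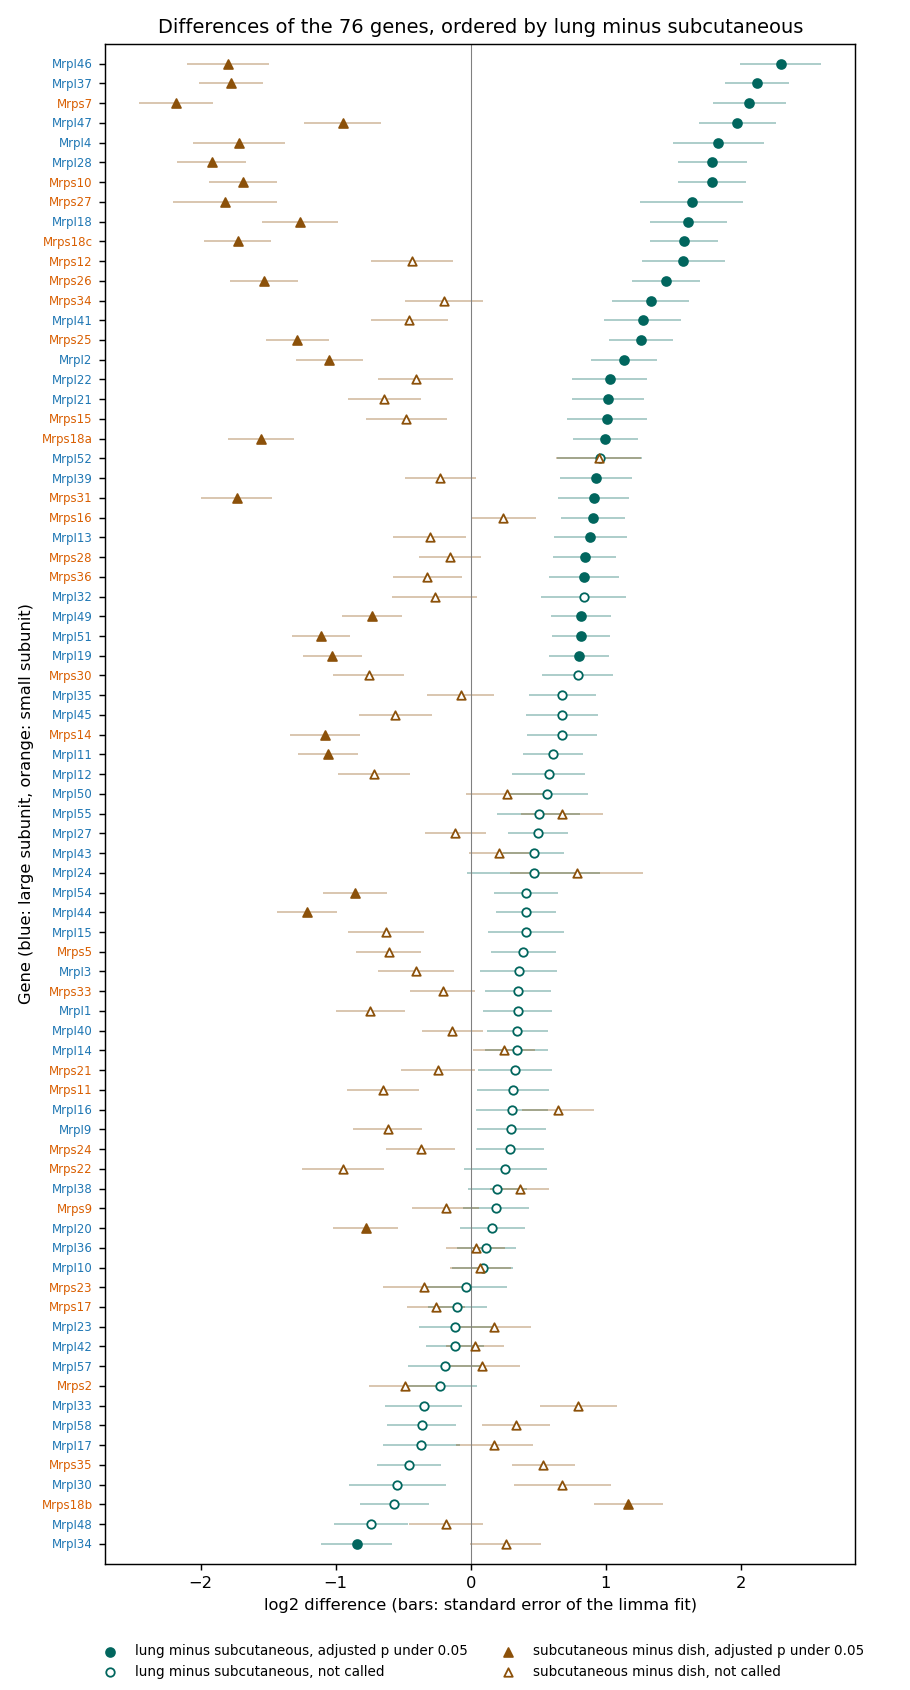
All 76 genes, ordered by lung minus subcutaneous (green circles), with subcutaneous minus dish (brown triangles) on the same line; the x axis is the log2 difference, bars are the standard error of the limma fit, and filled symbols have an adjusted p under 0.05. Both contrasts use the same subcutaneous arrays, so part of the mirror image is shared data; 62 circles lie above 0 and 55 triangles below it.

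Among large-subunit genes Mrpl46, a protein of the central protuberance, had the highest difference. It measured 11.22, 11.11 and 10.90 in dish, 9.52, 9.74 and 8.58 in subcutaneous and 11.67, 11.29 and 11.76 in lung samples. All subcutaneous values lay below both other groups. The lung was 2.29 above subcutaneous (SE 0.30, limma adjusted p = 0.000483), a fold of 4.90, and subcutaneous was -1.80 from dish (limma adjusted p = 0.00155).

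Mrpl37, a mitochondria-specific large-subunit protein, read 15.31, 15.21 and 15.22 in dish. Its subcutaneous values were 13.78, 13.41 and 13.22, and its lung values 15.63, 15.37 and 15.77, so the 3 groups were apart. The lung was 2.12 above subcutaneous (SE 0.24, limma adjusted p = 0.000225) and subcutaneous was -1.77 from dish (limma adjusted p = 0.000341). All 9 values were far above background. Mrpl28, the mitochondrial form of bacterial L28, read 12.45, 12.25 and 12.31 in dish, 10.73, 10.37 and 10.16 in subcutaneous and 12.15, 11.89 and 12.59 in lung samples. It was 1.79 higher in lung than subcutaneous samples (limma adjusted p = 0.000817) and subcutaneous was -1.92 from dish (limma adjusted p = 0.00034).

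Mrpl47, the mitochondrial form of bacterial uL29 near the exit tunnel, differed between all 3 groups. Its values were 11.45, 11.98 and 12.00 in dish, 11.21, 11.04 and 10.34 in subcutaneous and 12.90, 12.59 and 13.02 in lung samples, with no overlap. The lung was 1.97 above subcutaneous (limma adjusted p = 0.000817) and 1.02 above dish (limma adjusted p = 0.0463), and subcutaneous was -0.95 from dish (limma adjusted p = 0.0427). The call against dish was lost under all 3 other scalings (adjusted p = 0.0875 to 0.131) and without 7 of the 9 arrays taken in turn. Mrpl18 rose likewise in lung over subcutaneous samples, by 1.61 (limma adjusted p = 0.00251), with 10.09, 9.30 and 9.69 against 11.05, 11.08 and 11.78.

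Mrpl4, near the exit tunnel, gave 8.75, 8.19 and 7.77 in dish, 7.20, 5.99 and 6.39 in subcutaneous and 8.06, 8.39 and 8.62 in lung samples. Because the subcutaneous probe was not well above background, the lung was at least 0.85 higher on the log2 scale and the dish at least 0.73 higher, with a fitted adjusted p of 0.00337 and 0.00445 in limma. The call against dish was lost with RNA integrity as a covariate (adjusted p = 0.0718). Mrps10, a small-subunit protein, was bounded in the same way, at least 0.21 and 0.11 higher.

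Mrpl34 was the 1 member called lower in lung than subcutaneous samples, at 13.61, 13.78 and 13.55 in subcutaneous against 12.53, 12.56 and 13.32 in lung and 13.57, 13.42 and 13.18 in dish. The lung difference was -0.84 (limma adjusted p = 0.0468), and the call was lost without 8 of the 9 arrays taken in turn (adjusted p up to 0.184). Lung replicate 3 stood nearer to the other groups than lung replicates 1 and 2. Mrpl52 was the member whose lung against dish call survived every setting run here. Its values were 10.02, 9.46 and 9.14 in dish, 10.23, 10.44 and 10.80 in subcutaneous and 11.70, 10.86 and 11.78 in lung samples. The lung was 1.90 above dish (limma adjusted p = 0.00386), while the 0.96 over subcutaneous was not called (limma adjusted p = 0.0579). Mrpl55 (1.18), Mrps12 (1.14), Mrps34 (1.13) and Mrps16 (at least 0.69, its dish probe being not well above background) were also called higher against dish. Mrpl55 lost its call without 5 of the 9 arrays taken in turn, Mrps12 without 6, Mrps34 without 4 and Mrps16 without dish replicate 2. Mrpl55, Mrps12 and Mrps34 also lost it under all 3 other scalings, and Mrps16 under the 75th percentile scaling (limma adjusted p = 0.0528). Mrpl44, an RNase III-like protein, was called lower in lung than dish (limma adjusted p = 0.0475), and since its lung probe was not well above background the dish was at least 0.62 higher. That call was lost without 8 of the 9 arrays.

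Among small-subunit genes Mrps7 was the one with the largest difference. It measured 11.45, 10.83 and 10.79 in dish, 8.88, 8.73 and 8.91 in subcutaneous and 11.08, 10.45 and 11.17 in lung samples. Subcutaneous values sat close together and far below the rest, while dish and lung overlapped. The lung was 2.06 above subcutaneous (SE 0.27, limma adjusted p = 0.000483) and subcutaneous was -2.18 from dish (limma adjusted p = 0.000199). Mrps27, a pentatricopeptide repeat protein, gave 9.76, 9.55 and 8.94 in dish, 8.44, 7.62 and 6.74 in subcutaneous and 9.29, 8.86 and 9.55 in lung samples. Its subcutaneous values spread widely, and its difference was 1.63 against lung (limma adjusted p = 0.0125) and -1.82 against dish (limma adjusted p = 0.00676). The latter call was lost with RNA integrity as a covariate, at -1.22 (adjusted p = 0.101). Of the subcutaneous values 2 of 3 were above background.

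Mrps12, homologous to the bacterial decoding-centre protein S12, was higher in lung than in both other groups. It measured 10.48, 10.10 and 9.48 in dish, 9.55, 9.84 and 9.36 in subcutaneous and 11.00, 10.83 and 11.64 in lung samples, and only the dish and subcutaneous values overlapped. The lung was 1.57 above subcutaneous (limma adjusted p = 0.00458) and 1.14 above dish (limma adjusted p = 0.0427). The call against dish was lost under the 3 other scalings, at 0.80 to 0.92 (adjusted p = 0.0763 to 0.089). Mrps31 stood lower in subcutaneous samples than in both other groups. Its values were 9.86, 10.01 and 9.69 in dish, 8.0, 8.04 and 8.33 in subcutaneous and 9.28, 9.28 and 8.53 in lung samples, with lung replicate 3 nearest the subcutaneous ones. Subcutaneous was -1.73 from dish (limma adjusted p = 0.000755), and lung was 0.91 above subcutaneous (limma adjusted p = 0.0335), the latter call being lost without 4 of the arrays taken in turn (subcutaneous replicates 1 and 2, lung replicates 1 and 2).

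The 3 paralogs of bacterial S18 are encoded by separate genes. Mrps18c gave 15.06, 15.15 and 15.40 in dish, 13.80, 13.22 and 13.41 in subcutaneous and 15.29, 15.12 and 14.76 in lung samples. It was 1.58 higher in lung than subcutaneous samples (limma adjusted p = 0.00138) and -1.73 from dish in subcutaneous samples (limma adjusted p = 0.000576). Mrps18a gave 13.20, 13.26 and 13.21, then 11.78, 11.45 and 11.77, then 12.80, 12.27 and 12.93 in the same order. Lung was 1.00 above subcutaneous, and subcutaneous was -1.55 from dish (limma adjusted p = 0.0153 and 0.000967). The former call was lost without subcutaneous replicate 2, without lung replicate 1, and under 2 of the 3 other scalings (adjusted p = 0.0532, 0.0718, and 0.0588 to 0.0878). Mrps18b ran the other way, at 7.29, 6.85 and 7.68 in dish, 8.26, 8.55 and 8.50 in subcutaneous and 7.93, 7.70 and 7.98 in lung samples, and its subcutaneous values lay above all others. It was 1.16 higher in subcutaneous than dish (limma adjusted p = 0.00862) and -0.57 in lung against subcutaneous, which was not called (limma adjusted p = 0.161) but was called at -0.87 under the 75th percentile scaling (adjusted p = 0.0404). Of its dish values 2 of 3 were above background. With RNA integrity as a covariate the call against dish was lost (adjusted p = 0.0835). Whether the paralogs differ from each other was not tested, since each sits on its own probe. Mrps30 gave 0.79 in lung against subcutaneous samples (limma adjusted p = 0.0603), called once dim genes were filtered out (adjusted p = 0.0248), and Mrps36 gave 0.84 (limma adjusted p = 0.0441), a call lost under all 3 other scalings and without 8 of the 9 arrays taken in turn.

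**Figure D3:**
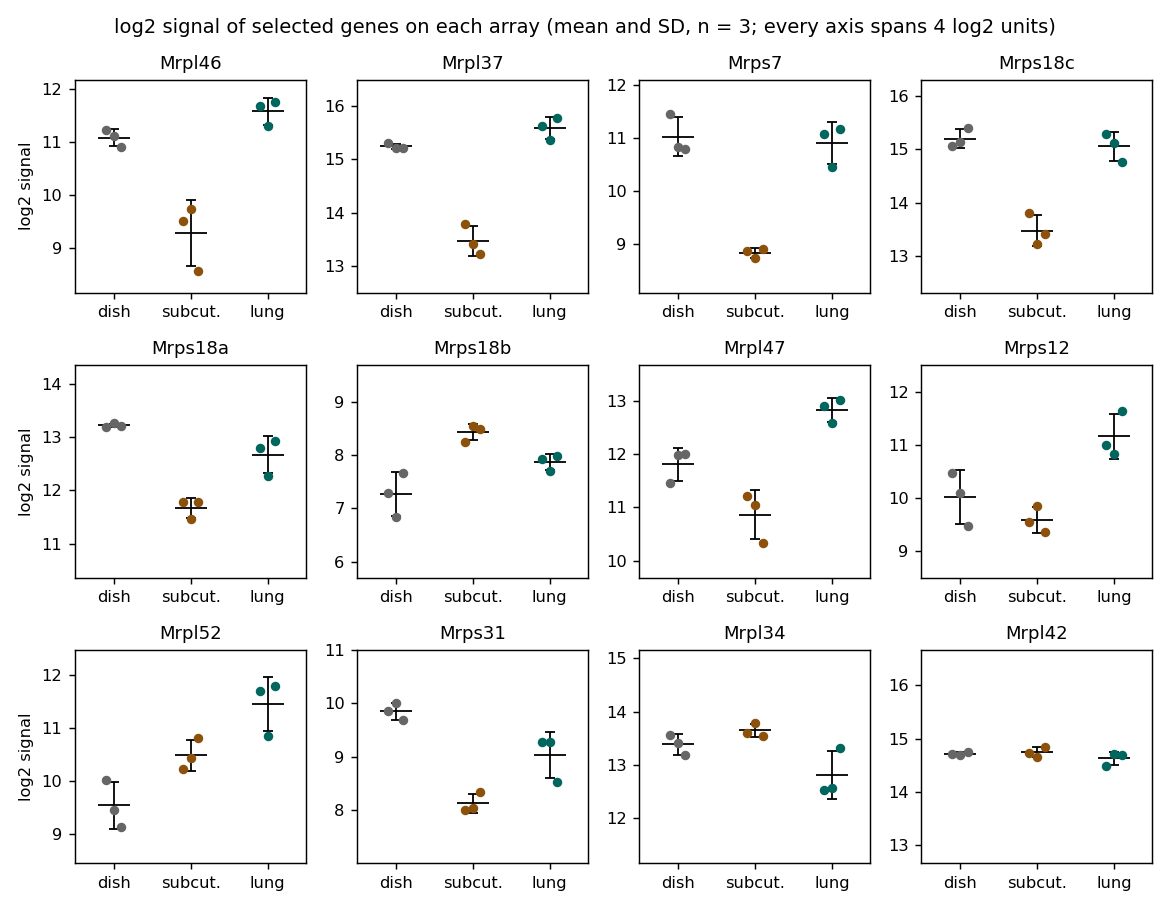
log2 signals of 12 genes on each array, with the mean and SD of 3 samples per group; every panel's y axis spans 4 log2 units but starts at a different level. Mrpl46, Mrpl37, Mrps7 and Mrps18c dip in the subcutaneous group, Mrps18b peaks there, Mrpl52 and Mrps12 are highest in the lung, and the Mrpl42 values lie between 14.48 and 14.85.

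The other 46 members were not called in lung against subcutaneous samples. Mrpl42 read 14.72, 14.69 and 14.74 in dish, 14.74, 14.65 and 14.85 in subcutaneous and 14.48, 14.71 and 14.70 in lung samples, with -0.12 in lung against subcutaneous (SE 0.21, limma adjusted p = 0.765). Across the 46 the values ran from -0.74 (Mrpl48) to 0.96 (Mrpl52). Mrpl12, which also binds the mitochondrial RNA polymerase, gave 0.58 (limma adjusted p = 0.174), Mrpl45, which anchors the ribosome to the inner membrane, 0.68 (0.111), and Mrpl58, which releases stalled chains, -0.36 (0.37). Mrpl32, which the m-AAA protease processes before assembly, gave 0.84 (limma adjusted p = 0.0946).

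Genes that build and serve the mitoribosome were taken as fixed lists beside the members. In lung against subcutaneous samples 9.21% of all genes were called higher and 5.79% lower, and 20.4% and 10.5% of genes above background. Assembly factors gave 25% and 10.7%, and mitochondrial tRNA synthetases 25% and 0%. Mitochondrial DNA transcription and replication gave 18.2% and 0%, and the respiratory chain list 16.5% and 5.06%. Their shares higher lie near or below that of genes above background, so these counts are not read as a result about the lists. Of 28 assembly factors 7 were higher and 3 lower in lung than subcutaneous samples (median 0.45), which became 6 and 4 under quantile normalization, and 3 and 4 under both the 75th percentile and the bright median scaling (medians 0.22, 0.14 and 0.24). The mean was above background for 16 of the 28, and Gtpbp6 and Rpusd4, 2 of the 7, were above it on no array of either group. Of the 28, 5 were lower (17.9%) and 1 higher (3.57%) in subcutaneous than dish (median -0.20). Among genes above background 14.8% were lower there, a share close to that of the list. Noa1, a GTPase of small-subunit assembly, read 9.63, 9.06 and 8.83 in dish, 7.24, 6.77 and 7.54 in subcutaneous and 10.11, 9.35 and 9.11 in lung samples. It was at least 2.01 higher in lung than subcutaneous samples, where the probe was not well above background (limma adjusted p = 0.000616). Mettl15 and Mterf4 were called the other way, at -1.21 and -1.01, each above background on 2 of the 3 lung arrays (limma adjusted p = 0.0135 and 0.0420), and the call of Mterf4 was lost without dish replicate 3, any subcutaneous replicate, or lung replicate 1 or 2. Of 15 translation factors, 10 with a mean above background, 6 were higher and 0 lower (median 0.52, and 0.21 to 0.36 under the other 3 scalings), including the elongation factor Tufm at 1.15 (limma adjusted p = 0.00689), Mtrf1l at 1.57 and Mtfmt at 1.22, the last above background on 2 of 3 subcutaneous arrays. Of 16 mitochondrial tRNA synthetases 4 were higher and 0 lower (median 0.70, and 0.39 to 0.49 under the other 3 scalings), but the mean was above background for 6 of them. Mars2, which charges methionine, read 10.07, 9.62 and 9.50 in dish, 7.34, 7.52 and 6.19 in subcutaneous and 9.44, 9.26 and 10.26 in lung samples, with 1 of the 3 subcutaneous values above background. It was called higher in lung than subcutaneous samples (limma adjusted p = 0.000634), and the size of the difference is not given because the other subcutaneous values and their mean were not above background.

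The list of 11 genes for mitochondrial DNA transcription and replication gave 2 higher (median 0.41, and 0.10 to 0.21 under the other 3 scalings) and had 7 with a mean above background, with the RNA polymerase Polrmt at 7.75, 8.06 and 6.63 in subcutaneous and 9.95, 9.67 and 8.93 in lung samples, 2.04 apart with 2 of the 3 subcutaneous values above background (limma adjusted p = 0.0030). Of 9 RNA processing genes 3 were higher and 2 lower (median -0.20, and -0.51 to -0.41 under the other 3 scalings), with the helicase Supv3l1 at 2.30, above background on 2 of 3 subcutaneous arrays (limma adjusted p = 0.000236). Of 25 import genes 9 were higher and 1 lower (median 0.52), against 5 and 3 with a median of 0.21 under the 75th percentile scaling and 7 and 1 with a median of 0.31 under the bright median scaling. Tomm40, the channel of the outer-membrane translocase, was 2.45 higher in lung than subcutaneous samples (limma adjusted p = 0.000285). Of 4 further mitoribosome proteins without an Mrp symbol, 0 were called by limma and 1 passed at an unadjusted p under 0.05, and Ptcd3 was called lower in lung than dish at -1.17 (limma adjusted p = 0.0233), a call lost without dish replicate 1 or 2 or any lung replicate. Of 9 nuclear regulators, among them Yy1, Nrf1, Gabpa and Myc, 0 were called higher or lower in lung against subcutaneous samples by limma, and 1 passed at an unadjusted p under 0.05. Yy1 gave 0.31, Nrf1 0.42, and Myc -0.30. Against dish, Yy1 was called higher in the lung at 1.01 (limma adjusted p = 0.0286), a call lost under the 3 other scalings, without dish replicate 2 or 3, and without any 1 lung array.

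Cytosolic ribosomal protein genes, the other translation machinery of the cell, had medians of the opposite sign. Of 60, 1 was higher and 22 lower in lung than subcutaneous samples (median -0.66), and 14, 37 and 35 were lower under quantile, 75th percentile and bright median scaling (medians -0.33, -0.96 and -0.86). The share lower in lung than subcutaneous samples was 36.7% as deposited, beside 10.5% of genes above background. Of the 60, 11 were higher (18.3%) and 1 lower (1.67%) in subcutaneous than dish (median 0.38). Among genes above background 14.7% were higher and 14.8% lower there, so the share higher lies near the background. Rpl39 read 10.78, 11.06 and 10.68 in dish, 13.22, 13.81 and 13.89 in subcutaneous and 9.71, 9.61 and 10.26 in lung samples, with -3.78 in lung against subcutaneous samples (limma adjusted p = 1.4e-05). Rpl10a gave -1.64 and Rps10 -1.78 (limma adjusted p = 0.000639 and 0.00116). Several cytosolic ribosomal protein genes have many processed pseudogenes, and whether a probe separates them is not given in the sources used here. For the 79 nuclear subunits of the respiratory chain and ATP synthase, 13 were higher and 4 lower (median 0.11, and -0.19 to 0.09 under the other 3 scalings, where it changed sign). These became 15 and 4 under quantile, 6 and 9 under the 75th percentile and 7 and 7 under the bright median scaling, so no direction is given for the list. Uqcrc1 gave 1.59 and Cox7a2l -2.65. In subcutaneous against dish samples, 4 translation factors were lower (26.7%) and 0 higher, and 3 tRNA synthetases lower (18.8%) and 1 higher. There 2 RNA processing genes were lower (22.2%) and 1 higher, and 7 import genes lower (28%) and 0 higher. The share of synthetases lower lies near the 14.8% of genes above background. Of the respiratory chain genes 10 were lower and 3 higher (12.7% and 3.8%), below the 14.8% and 14.7% of genes above background. Of all genes, 4.81% were called higher and 1.97% lower in lung than dish samples. In that comparison the same lists gave 2, 0, 0, 3 and 1 higher, and 0, 0, 1, 0 and 1 lower. Under the 75th percentile scaling these became 0, 0, 0, 1 and 0 higher, and 1, 0, 2, 5 and 13 lower. Over all genes the calls went from 938 higher and 384 lower to 565 and 1787 under the same scaling. As deposited, 13.3% of translation factors and 12% of import genes were called higher, near the 11.0% of genes above background. These lung against dish counts are therefore not read as a result about the lists. Protein genes encoded by mitochondrial DNA were looked for by symbol, and none was found among the annotated genes, so they were not analysed here. In lung against subcutaneous samples the members' median and those of the other lists named here kept their sign under the other 3 scalings, apart from the respiratory chain, while their sizes moved as given.

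**Figure D4:**
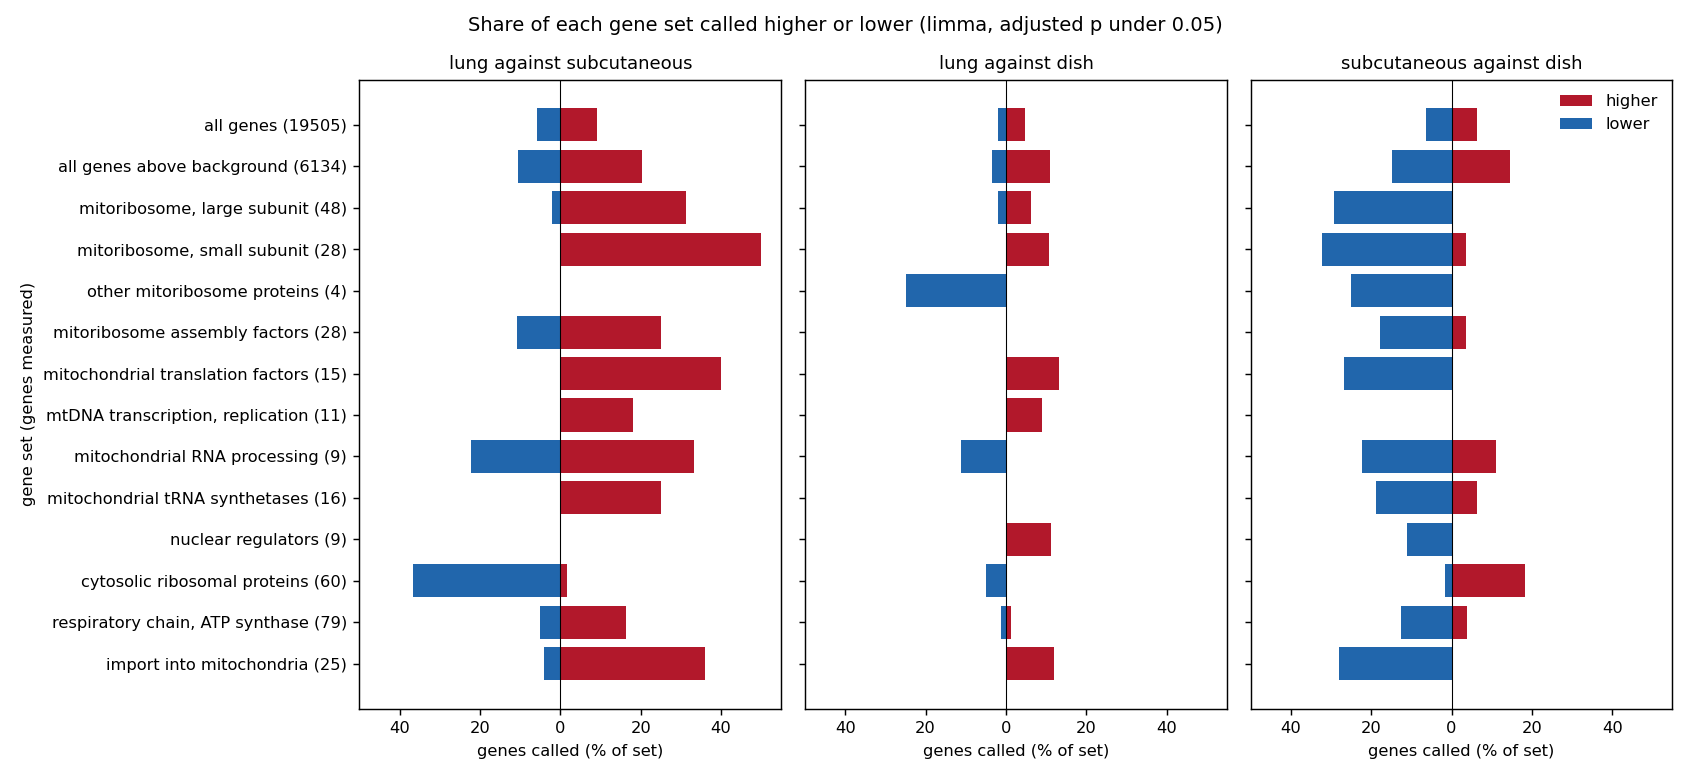
Share of each gene set called higher (red, right) or lower (blue, left) with limma at an adjusted p under 0.05, for the 3 comparisons; the x axis is percent of the set, with the number of genes measured in brackets. Both mitoribosome subunits lean right in lung against subcutaneous (50% and 31.2%) and left in subcutaneous against dish (32.1% and 29.2%). Cytosolic ribosomal proteins lean the other way, though their 18.3% higher in subcutaneous against dish lies near the 14.7% of genes above background.

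Promoter windows were found for 67 of the 76 members and for 15691 genes of the array. Of the 67, 48 held at least 1 of the 4 motifs (71.6%, against 30.7% of all genes' windows). The YY1 motif stood in 21 members (31.3% against 7.55%), the ETS motif in 25 (37.3% against 13.2%), the NRF1 motif in 13 (19.4% against 7.63%) and the E-box in 5 (7.46% against 9.26%). Of the 24 members with a window that were called higher in lung than subcutaneous samples, 10 held YY1 (41.7%), 10 ETS (41.7%), 2 NRF1 (8.33%) and 3 an E-box (12.5%). Of the 43 others with a window, 11 held YY1 (25.6%), 15 ETS (34.9%), 11 NRF1 (25.6%) and 2 an E-box (4.65%). The median lung against subcutaneous difference was 0.81 over the members with a YY1 match and 0.37 over those without, 0.34 with and 0.59 without an NRF1 match, 0.47 with and 0.57 without an ETS match, and 1.13 with and 0.50 without an E-box, which 5 members hold. Mrpl37 and Mrps7 hold a YY1 match just after the start site, at 26 and 18, and Mrps12 holds one at -199 on the reverse strand beside an ETS match at 1. Mrpl46, with the highest difference, holds none of the 4 in its window, but the window edge decides this. The YY1 match of Mrps11, at -107 in its own window, lies just past the downstream end of the Mrpl46 window. On the Mrpl46 strand it reads AAGATGGC. A match is a run of letters and not a shown binding site.

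Many members start next to another gene on the opposite strand, so that 1 stretch of DNA lies upstream of both. With start sites at most 1000 bases apart, or overlapping by at most 200, 24 of 67 members (35.8%) had such a partner measured, against 1342 of 15487 protein-coding genes (8.67%). These are 23 distinct pairs, since Mrpl46 and Mrps11, 42 bases apart, are each other's partner. In lung against subcutaneous samples 13 of the 24 members and 7 of the partners were called higher. The share called higher was 9.21% of all genes and 20.4% of genes above background. Both genes were called higher for 4 of the 24, and no such share was made over the pairs of all genes. The 7 partners include Mrpl46, itself a member, and Cyb5rl, and the 4 pairs include Mrpl37 and Cyb5rl. Another of the 7, Mitd1, was called at 1.21 (limma adjusted p = 0.0175). Its neighbour Mrpl30 gave -0.54 and was not called (limma adjusted p = 0.344). Mrps11 read 12.28, 12.33 and 11.88 in dish, 11.22, 11.59 and 11.73 in subcutaneous and 11.74, 11.49 and 12.23 in lung samples, 0.31 apart and not called (limma adjusted p = 0.483), while Mrpl46 gave 2.29. Its lung and subcutaneous values overlapped and those of Mrpl46 did not, and the difference between the genes was not tested. Mrps7 and Gga3, 224 bases apart, were both called higher, at 2.06 and 1.52 (limma adjusted p = 0.000483 and 0.002), as were Mrpl18 and the chaperonin gene Tcp1, 238 bases apart, at 1.61 and 1.20 (0.00251 and 0.0148), and Mrpl51 and Ncapd2, 614 apart, at 0.81 and 0.85 (0.023 and 0.0476). The call of Mrpl51 was lost without 5 of the 9 arrays taken in turn. In the pair Mrpl49 and Fau the member was called at 0.82 (lost without 4 of the arrays taken in turn: subcutaneous replicates 2 and 3, lung replicates 1 and 2) and Fau gave -0.55. The neighbour of Mrpl37, Cyb5rl, was above background on 0 arrays, as were 7 partners in all, so its call says nothing of its level.

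**Figure D5:**
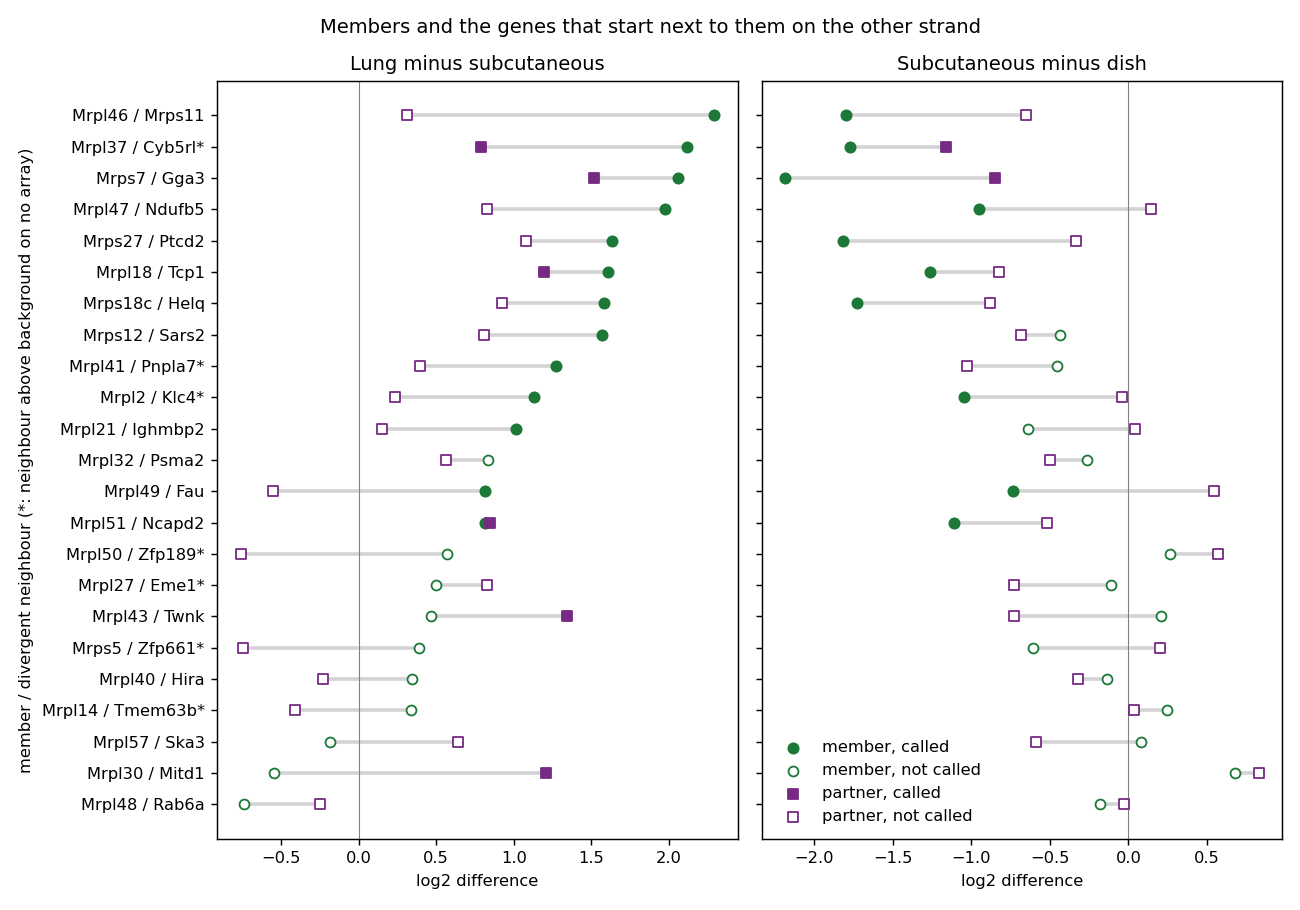
The 23 pairs of members and the genes that start beside them on the other strand; green circles are members, purple squares partners, filled where the adjusted p is under 0.05, for lung minus subcutaneous (left) and subcutaneous minus dish (right) on a log2 axis. An asterisk marks the 7 partners above background on no array. Mrpl46 and Mrps11 lie far apart in the left panel, 2.29 against 0.31.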

How the data were processed

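RNA was measured on 1-colour whole-transcript arrays, 3 samples per group, grouped by sample title. The authors deposited 1 table of log2 signals (28846 rows) already on a log scale. How they were normalized, and on which build, is not stated in the labels. A platform annotation gave 19572 features 1 symbol, and the feature with the highest mean was kept for each of 19505 genes. All 9 arrays were fitted with limma 3.58.1 in R 4.3.3 (3 group means, 6 residual and 7.08 prior degrees of freedom, two-sided, Benjamini-Hochberg over all genes, called at an adjusted p under 0.05). The fit was also run on simulated data with independent normal noise and set shifts of some genes in the lung group. That simulation held no difference in array scaling, RNA quality or cell mixture, so it cannot speak to those. No depth exists for arrays, and 3 arrays a group limit the precision. "At least" sets the brighter group against the background percentile of the dimmer.

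The members, the gene lists and the alternatives were chosen with earlier results of these data known. The motifs, the divergent pairs, the assignment by structure, the windows shown and the uncalled members singled out were chosen after values were seen. Genes named otherwise are, per comparison, called members whose groups did not overlap (up to 10 each way), the brightest and dimmest members, the Mrps18 paralogs, Mrps30, Mrps36, and called genes of each list. Alternatives were other scalings, a filter on dim genes, other eBayes settings, array weights, features averaged, only the groups compared, RNA integrity as a covariate, a replicate block, structural subunits and leaving out each array.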

Additional observations from a re-analysis of the deposited data

How the results depend on the processing

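In lung against subcutaneous samples, 16 (75th percentile made equal), 17 (bright median made equal) or 19 (quantile) members were higher and 3, 2 and 2 lower, with medians of 0.23, 0.33 and 0.41; 2 were lower under the dim filter, and 0 with only the groups compared or RNA integrity as a covariate. The large minus small gap was -0.18 with array weights and -0.18 by structure. In lung against dish the scalings gave, in the same order, 1, 2 and 3 higher, 8, 3 and 3 lower, and medians of -0.25, -0.13 and -0.15, with a gap of 0.29 under quantile and 2352 genes called at the 75th percentile. There, array weights gave 5 lower and 3039 genes, the dim filter 3 lower, eBayes with trend 2 lower, only the groups compared 0 lower, and RNA integrity 2 higher, 0 lower and 856 genes. In subcutaneous against dish the dim filter gave 3 higher and a gap of 0.0806, trend 2 higher, and RNA integrity 0 higher, 13 lower, a gap of 0.39 and 1280 genes. The cause was not tested.

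Leaving out each array gave 18 to 27 higher, 0 to 1 lower, medians of 0.51 to 0.68, gaps of -0.36 to -0.062 and 1476 to 2928 genes (lung against subcutaneous). It gave 1 to 6 higher, 0 to 1 lower, medians of -0.0468 to 0.12, gaps of 0.14 to 0.30 and 514 to 1442 genes (lung against dish), and 1 to 2 higher, 18 to 25 lower, medians of -0.48 to -0.29, gaps of 0.13 to 0.32 and 1639 to 2738 genes (subcutaneous against dish). Deviations from the group mean, over all genes, correlated at -0.06 to 0.09 between samples of 1 replicate number, 0 of 9 over 0.1. With 3 arrays a group this cannot decide whether the numbers pair the samples. The replicate block gave 26 higher and 0 lower, 3 higher and 0 lower, and 20 lower, with the comparisons in the same order. Of the called members picked by size in each comparison (up to 10 each way), 10 of 11, 1 of 7 and 8 of 11 kept their call under all 20 alternatives. None of these reversed. Other called members named above are not in these counts. Of all 29 members called higher in lung than subcutaneous samples, 16 kept their call whichever array was left out. Detection over background limits the 16 members not above it on every array.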
